A study of Mus musculus with 22 samples.

Results

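The change of gene expression between day 2 and day 4 of adipocyte differentiation was followed in cells with DNMT3A WT. The samples were 2 at day 2 and 2 at day 4, chosen by genotype and day from the 22 RNA-seq samples of the series. The cells were C3H 10T1/2, a mouse mesenchymal stem cell line that can become adipocytes, in lines made to express DNMT3A1, a de novo DNA methyltransferase, in WT or mutant form. All differentiating groups first received medium with 10% FBS, 0.5 mM isobutylmethylxanthine (which raises cAMP), 1 μM dexamethasone (a glucocorticoid), insulin at 5 μg/mL and troglitazone (an agonist of PPARγ) at 5 μM. After day 2 only FBS and insulin were kept, so that day 4 cells had passed the interval without the other agents. W330R and W330R-R181E cells treated in the same way, with 2 samples at each of the same days, were used for comparison. Undifferentiated and day 6 WT samples gave the levels before and after. The sources did not say whether replicates were separate cultures or cell lines. The p-values therefore measure the spread between replicates, taken over all 22 samples, which may be technical. Counts on Dnmt3a do not separate introduced DNMT3A from the cells' own gene.

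As background, adipogenesis begins with C/EBPβ and C/EBPδ, which hormones in the induction medium raise, and passes to PPARγ and C/EBPα, which switch on the genes of lipid storage. Maturing adipocytes make fatty acids and triglycerides, coat lipid droplets, take up glucose through GLUT4 and secrete adipokines such as adiponectin and adipsin. Matrix, contractile and cell cycle genes of the mesenchymal precursor usually decline when this program starts.

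The 4 WT samples had 13567589 and 23763429 counts at day 2 and 13314060 and 20106178 at day 4, within a range of 8859501 to 47453908 over the series. Levels are given below as CPM, the counts per megaread of library size after TMM normalization, in the order replicate 1, replicate 2. At these depths 3 counts in a sample correspond to 0.148 to 0.227 CPM, which was taken as the floor. The summed level of 8 adipocyte markers was 3220 and 2860 CPM at day 2 and 4800 and 6040 CPM at day 4. That of 6 mesenchymal markers was 2630 and 2470 CPM at day 2 and 5760 and 5040 CPM at day 4. Markers of both labelled states were thus present on both days. Much of each sum came from 1 gene, Fabp4 (up to 3260 CPM) and Vim (up to 4590 CPM), so the sums do not show the other markers. Sums for other cells ran from 3.28 to 8.46 CPM for 5 immune markers (Cd68 reaching 8.0), 1.62 to 2.96 CPM for 6 endothelial markers (Cldn5 at 0), 0.197 to 0.807 CPM for 5 epithelial markers (Epcam at 0), 0.787 to 7.72 CPM for 3 neural markers (almost all Gfap at its highest) and at most 0.0755 CPM for 2 erythroid markers. In these bulk samples fewer cells of a type and less RNA per cell cannot be told apart.

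Of 14520 genes tested, 1565 (10.8%) changed between day 2 and day 4 in WT, at a Benjamini-Hochberg adjusted p under 0.05 in edgeR's quasi-likelihood test. Of all genes tested, 961 (6.62%) were higher and 604 (4.16%) were lower at day 4, while the median log2 change of all genes was 0.01. Increases were larger than decreases: 121 genes rose by 3 or more on the log2 scale and 8 fell by as much. All 1565 genes moved the same way in both pairs of same-numbered samples, with no overlap between the days, which was also true of 47.8% of all genes tested. The spread in the test was shared by all 22 samples, although undifferentiated replicates were closer to each other than those compared here. The median absolute log2 difference between replicates was 0.0935 and 0.105 in undifferentiated WT and W330R cells. It was 0.354 and 0.331 in WT cells at day 2 and day 4. With days 2 to 6 only, 1013 genes were called. With the replicate number as a block 2307 were called, and 2955 with the block and only the WT samples. The next counts are without the block. When only the 4 WT samples were fitted, 7 genes were called, and the count was 488 without day 2 replicate 2 and 627 without day 4 replicate 1.

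The largest increases included genes of secreted adipocyte proteins and lipid metabolism. Rarres2, which encodes the adipokine chemerin, was at 0.302 and 0.344 CPM at day 2 and 10.1 and 32.2 CPM at day 4, a log2 change of 6.0 ± 1.16 (SE; adjusted p = 0.0060). Cfd, the gene of adipsin (complement factor D), went from 2.87 and 2.26 CPM to 184 and 105 CPM (log2 change 5.82 ± 0.64, adjusted p = 0.00030). Thrsp, a regulator of lipogenesis, went from 0.529 and 0.443 CPM to 23.9 and 23.6 CPM (5.61 ± 0.45, adjusted p = 3.9e-05). In these 3 genes the day 4 samples lay far above both day 2 samples, and the genes were at or near 0 in undifferentiated cells. Ces1d, a lipid droplet carboxylesterase, rose from 1.06 and 0.689 CPM to 41.2 and 33.7 CPM (5.46 ± 0.46, adjusted p = 3.9e-05). Cox8b, a cytochrome c oxidase subunit of muscle and brown fat, rose from 0.755 and 0.295 CPM to 6.06 and 10.1 CPM (4.01 ± 0.72, adjusted p = 0.0040). At day 6 both genes were above both day 4 samples. Other genes among the 10 largest increases were Col28a1 (5.11), Nov (4.79), Abca8a (4.73) and Sparcl1 (4.22), which encode a collagen chain, a matricellular protein of the CCN family, an ABC transporter and a matricellular protein related to SPARC. Nov and Col28a1 had been high in undifferentiated cells, at 924 and 953 CPM for Nov and 45.7 and 48.2 CPM for Col28a1. The calls of Rarres2 and Cox8b were lost without day 2 replicate 2 (adjusted p = 0.072 and 0.064), and 33.6% of the exon bases of Rarres2 overlap Lrrc61 on the other strand.

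**Figure D1:**
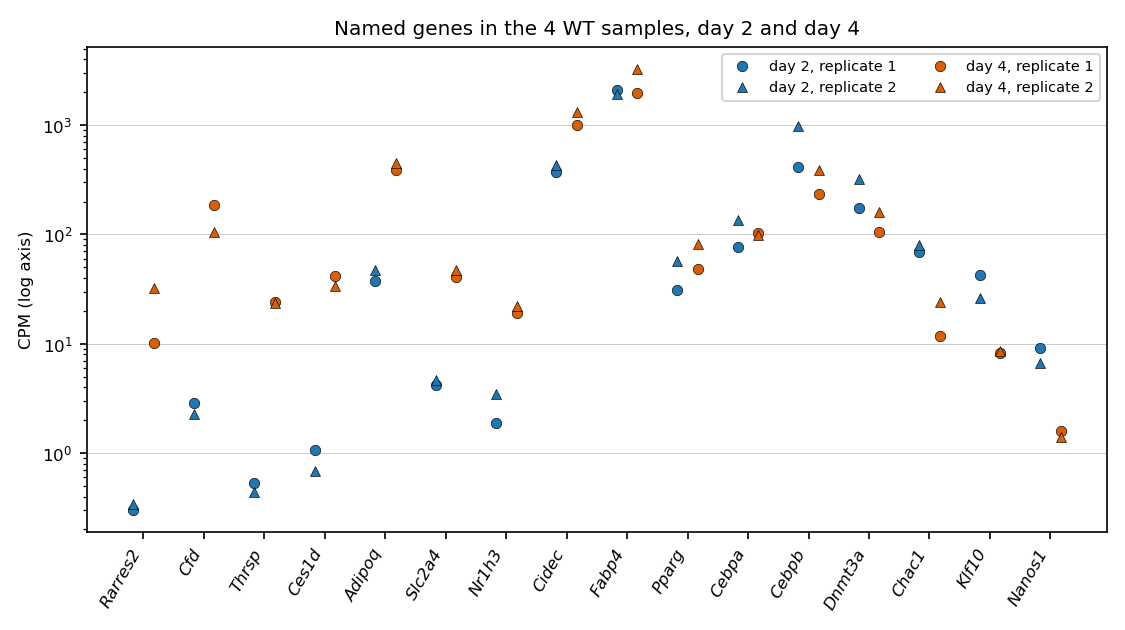
Levels (CPM, log axis) of 16 named genes in the 4 WT samples; blue is day 2, orange is day 4, circles are replicate 1 and triangles replicate 2. The days are far apart for genes such as Cfd and Thrsp on the left and Nanos1 on the right, and they overlap for Fabp4, Pparg and Cebpa.

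The largest decreases included genes of a transcription factor, secreted regulators and a transporter. Klf10, an early-response transcription factor of TGF-β signalling, went from 42.6 and 26 CPM to 8.23 and 8.61 CPM and fell by 2.02 ± 0.25 on the log2 scale (adjusted p = 0.00032). Nanos1, which encodes an RNA-binding protein, went from 9.21 and 6.64 CPM to 1.59 and 1.4 CPM and fell by 2.40 ± 0.47 (adjusted p = 0.0052). Both calls held with each of the 4 WT samples left out in turn. Notum, a secreted enzyme that inactivates WNT proteins, was at 4.61 and 14 CPM at day 2 and 0.650 and 0.969 CPM at day 4 (log2 change -3.50). Inhba, the activin A subunit, went from 68.8 and 173 CPM to 5.63 and 25.8 CPM (-2.93), and Lrp4, a coreceptor that modulates WNT signalling, went from 50.9 and 170 CPM to 16 and 21.0 CPM (-2.57). In each of these genes day 2 replicate 2 was well above day 2 replicate 1, and the adjusted p was 0.059 and 0.06 without day 2 replicate 2 and day 4 replicate 1 in turn for Notum, 0.25 and 0.25 without day 2 replicate 2 and day 4 replicate 1 in turn for Inhba and 0.27, 0.16 and 0.08 without day 2 replicate 2, day 4 replicate 1 and day 4 replicate 2 in turn for Lrp4. Slc16a1, the monocarboxylate transporter MCT1, went from 420 and 778 CPM to 89.6 and 199 CPM (-2.05), with an adjusted p of 0.20 without day 4 replicate 1 and 0.18 without day 2 replicate 2. Zfp90, a zinc finger protein gene, went from 5.74 and 4.67 CPM to 1.73 and 0.754 CPM (-2.08, adjusted p = 0.014, and 0.1 without day 4 replicate 2). Of its exon bases 79.5% overlap Gm26786 on the other strand. Grip2, a synaptic scaffold gene, was at 115 and 7.18 CPM at day 2 and 6.57 and 3.98 CPM at day 4, with a log2 change of -3.54 (adjusted p = 0.031) that became -0.46 (adjusted p = 0.72) without day 2 replicate 1. Its adjusted p was 0.13 and 0.14 without day 4 replicate 1 and day 4 replicate 2 in turn.

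Of 27 transcription factors that drive adipogenesis, 2 were higher (7.41%, against 6.62% of all genes tested) and 1 was lower (3.7%, against 4.16%), shares near those of all genes, with a median log2 change of -0.07. Pparg was at 30.9 and 57.1 CPM at day 2 and 48.4 and 81.4 CPM at day 4 (log2 change 0.56, adjusted p = 0.21), so that the days overlapped. Cebpa was at 76.9 and 134 CPM and then 102 and 98.8 CPM (-0.07, adjusted p = 0.91). Cebpb was at 412 and 979 CPM at day 2 and 234 and 392 CPM at day 4 (-1.15, adjusted p = 0.059), and Cebpd was at 257 and 454 CPM and then 151 and 233 CPM (-0.89, adjusted p = 0.12). The day 2 and day 4 samples of Cebpb and Cebpd did not overlap, but both genes missed the threshold in this fit. DESeq2 called Cebpb (adjusted p = 0.021), as did edgeR without the filter on low counts (0.025). Pparg, Cebpb and Cebpd were called in at least 1 fit with the replicate number as a block, given with the processing. In undifferentiated cells Cebpb had been at 33.4 and 31.1 CPM and Cebpa at 15.5 and 18 CPM. The members that rose were Nr1h3, the oxysterol receptor LXRα, from 1.89 and 3.49 CPM to 19.2 and 22.3 CPM (2.93 ± 0.34, adjusted p = 0.00021), and Zfp467, a zinc finger factor, from 0.680 and 0.443 CPM to 1.88 and 2.15 CPM (1.86, adjusted p = 0.020). The member that fell was Klf5, an early Krüppel-like factor, from 34.4 and 18.9 CPM to 10.0 and 5.44 CPM (-1.79, adjusted p = 0.012). The adjusted p of Zfp467 was 0.19, 0.062 and 0.076 without day 2 replicate 2, day 4 replicate 1 and day 4 replicate 2 in turn, and that of Klf5 was 0.08 and 0.099 without day 2 replicate 1 and day 4 replicate 2 in turn.

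Among 25 factors known to hold back adipogenesis, 1 was higher (4%, against 6.62% of all genes tested) and 3 were lower (12%, against 4.16%). Their median log2 change was -0.26. Nr2f2 (COUP-TFII) fell from 76.7 and 88.8 CPM to 46.6 and 41.9 CPM (-0.90 ± 0.16, adjusted p = 0.0028), a call that held with each sample left out. Wwtr1, which encodes TAZ, fell from 131 and 200 CPM to 94.9 and 120 CPM (-0.62, adjusted p = 0.038, and 0.37 and 0.27 without day 2 replicate 2 and day 4 replicate 1 in turn). The last of the 3 was Tle3. Klf2, in contrast, rose from 4.91 and 5.02 CPM to 18.4 and 25.3 CPM (2.14, adjusted p = 0.010, and 0.05, 0.098 and 0.061 without day 2 replicate 1, day 2 replicate 2 and day 4 replicate 2 in turn), after 54.5 and 49.8 CPM in undifferentiated cells.

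Among lipid storage genes, Cidec and Cav1 rose while the common markers Fabp4, Plin1 and Lpl did not pass the test. Fabp4, the adipocyte fatty acid binding protein, was at 2113 and 1919 CPM at day 2 and 1961 and 3256 CPM at day 4 (log2 change 0.37, adjusted p = 0.67). Plin1, the perilipin that coats droplets, was at 48.9 and 86.2 CPM and then 75 and 144 CPM (0.70, adjusted p = 0.38), and Lpl, lipoprotein lipase, was at 532 and 188 CPM and then 1044 and 598 CPM (1.19, adjusted p = 0.18). The days overlapped for Fabp4 and Plin1 and not for Lpl. Plin1 and Lpl were called in 1 fit with the replicate number as a block, given with the processing. Cidec, which fuses lipid droplets, rose from 375 and 428 CPM to 1000 and 1306 CPM (1.52 ± 0.21, adjusted p = 0.0012). Cav1, the main protein of caveolae, rose from 12.9 and 5.07 CPM to 64.1 and 55.4 CPM (2.76, adjusted p = 0.0050, and 0.071 without day 2 replicate 2). Hilpda, an inhibitor of lipolysis induced by hypoxia, fell from 16.6 and 27.3 CPM to 6.57 and 8.29 CPM (-1.56, adjusted p = 0.0038, and 0.052 without day 2 replicate 2). In undifferentiated cells Cidec had been at 0 CPM in both samples and Cav1 at 49.7 and 53.7 CPM. The day 4 level of Cav1 was thus close to that of the precursor. Of 19 lipid droplet proteins 2 rose (10.5%, against 6.62% of all genes tested) and 1 fell (5.26%, against 4.16%). Of 18 genes of fatty acid uptake 3 rose (16.7%), among them Acsl3 and Acsl5. The adjusted p of Acsl3 was 0.0098 and became 0.067 and 0.06 without day 2 replicate 1 and day 4 replicate 2 in turn.

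Of 33 genes of lipogenesis and triglyceride synthesis 10 were higher (30.3%, against 6.62% of all genes tested) and 1 was lower (3.03%, against 4.16%). Their median log2 change was 0.37. The 10 were Acly and Slc25a1, which supply cytosolic acetyl-CoA, Acacb, Acss2, Thrsp, Gpd1, Lpin1, Lpin3, Aqp7 and Fads1. Gpd1, which makes glycerol 3-phosphate, was at 54.8 and 11.2 CPM at day 2 and 500 and 271 CPM at day 4 (3.56, adjusted p = 0.022, and 0.17 and 0.11 without day 2 replicate 2 and day 4 replicate 1 in turn). Agpat9, the acyltransferase GPAT3, went the other way, from 350 and 420 CPM to 178 and 190 CPM (-1.07 ± 0.20, adjusted p = 0.0049). Of 21 lipolysis genes 3 rose (14.3%): Ces1d, Aqp7 and the hormone-sensitive lipase gene Lipe. Aqp7, a glycerol channel, rose from 2.11 and 1.08 CPM to 11.2 and 5.92 CPM (2.44, adjusted p = 0.025, and 0.22 and 0.17 without day 2 replicate 2 and day 4 replicate 1 in turn).

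Secreted adipocyte proteins had 10 of 27 higher (37%, against 6.62% of all genes tested) and 3 lower (11.1%, against 4.16%). Their median log2 change was 1.12. Adipoq, the gene of adiponectin, was at 37.7 and 47.1 CPM at day 2 and 387 and 454 CPM at day 4 (3.31 ± 0.37, adjusted p = 0.00015) and at 753 and 1300 CPM at day 6. The other 9 were Cfd, Retn (resistin), Apln (apelin), Apoe, Apoc1, Sparcl1, Lgals12, Adm (adrenomedullin) and Omd. The lower genes included Angptl4, an inhibitor of lipoprotein lipase, and Fgf21, a metabolic hormone. Fgf21 was close to the floor, with 9 and 23 counts at day 2 and 0 and 2 counts at day 4, a ratio of day 4 to day 2 of 0.0647 (95% exact interval 0.00751 to 0.254). Its adjusted p of 0.021 became 0.13 and 0.14 without day 2 replicate 2 and day 4 replicate 1 in turn. Lep, the gene of leptin, had 0 counts in all 4 samples and was under the filter, as was Ucp1, with 1 count in all. The number of secreted proteins called higher was 4 without day 2 replicate 2 and 6 without day 4 replicate 2, against 10 with all samples.

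Adipoq is transcribed from mouse chromosome 16, and its proximal promoter is shown because the gene is the defining secreted product of the cell type. The 160 bases before its RefSeq start (GRCm38.p6, chr16:23146376-23146535, plus strand) hold 3 matches to CCAAT, the box bound by NF-Y, read on either strand and given in capitals. The same letters occur in 37.4% of the 32851 promoter windows of 300 bases in the RefSeq table.
Adipoq: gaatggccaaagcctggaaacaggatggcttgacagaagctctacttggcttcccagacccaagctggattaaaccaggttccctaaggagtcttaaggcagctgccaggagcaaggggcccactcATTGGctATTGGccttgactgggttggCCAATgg

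Of the genes of insulin signalling and glucose uptake, the main transporter rose. Slc2a4, the gene of the insulin-responsive transporter GLUT4, was at 4.23 and 4.62 CPM at day 2 and 40.5 and 46.8 CPM at day 4 (3.30 ± 0.38, adjusted p = 0.00021), after values at or near 0 in undifferentiated cells. Hk1, a hexokinase, rose from 80.9 and 91.9 CPM to 172 and 186 CPM (1.05 ± 0.14, adjusted p = 0.00042). Both calls held with each sample left out. Irs2, an adaptor of the insulin receptor, fell from 102 and 88.2 CPM to 59.1 and 38.7 CPM (-0.96, adjusted p = 0.029, and 0.1, 0.086 and 0.17 without day 2 replicate 1, day 2 replicate 2 and day 4 replicate 2 in turn). With Pfkfb3, 3 of 29 genes of the list rose (10.3%, against 6.62% of all genes tested) and 1 fell (3.45%, against 4.16%). Their median log2 change was 0.06.

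Genes of fat oxidation were next. The 46 genes of fatty acid oxidation and the TCA cycle had a median log2 change of 0.30. Of these, 0 fell and 6 rose (13%, against 6.62% of all genes tested). The 6 that rose were Cpt2, Acads, Acadsb, Hadh, Acaa2 and Ehhadh, all enzymes of acyl-CoA breakdown or its carnitine shuttle. Ehhadh, a peroxisomal enzyme, rose from 0.529 and 0.197 CPM to 9.60 and 7.27 CPM (4.60 ± 0.70, adjusted p = 0.0013), and Hadh, a mitochondrial dehydrogenase, rose from 104 and 74.3 CPM to 176 and 211 CPM (1.12 ± 0.20, adjusted p = 0.0031, and 0.052 without day 2 replicate 2). Without day 2 replicate 2 the list had 2 called genes. The 80 subunits of the mitochondrial respiratory chain had 1 higher (Cox8b, 1.25%), 1 lower (Cox7a2l, 1.25%) and a median log2 change of -0.03. Both shares were below those of all genes tested (6.62% and 4.16%). Cox7a2l, a supercomplex factor, went from 265 and 349 CPM to 144 and 236 CPM (-0.69, adjusted p = 0.048, and 0.31 and 0.35 without day 2 replicate 2 and day 4 replicate 1 in turn), and 16.6% of its sequences of 31 bases occur in other genes. Of 15 thermogenic fat genes 2 were higher (Cox8b and Cited1, 13.3%) and 2 were lower (Pdk4 and Fgf21, 13.3%).

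**Figure D2:**
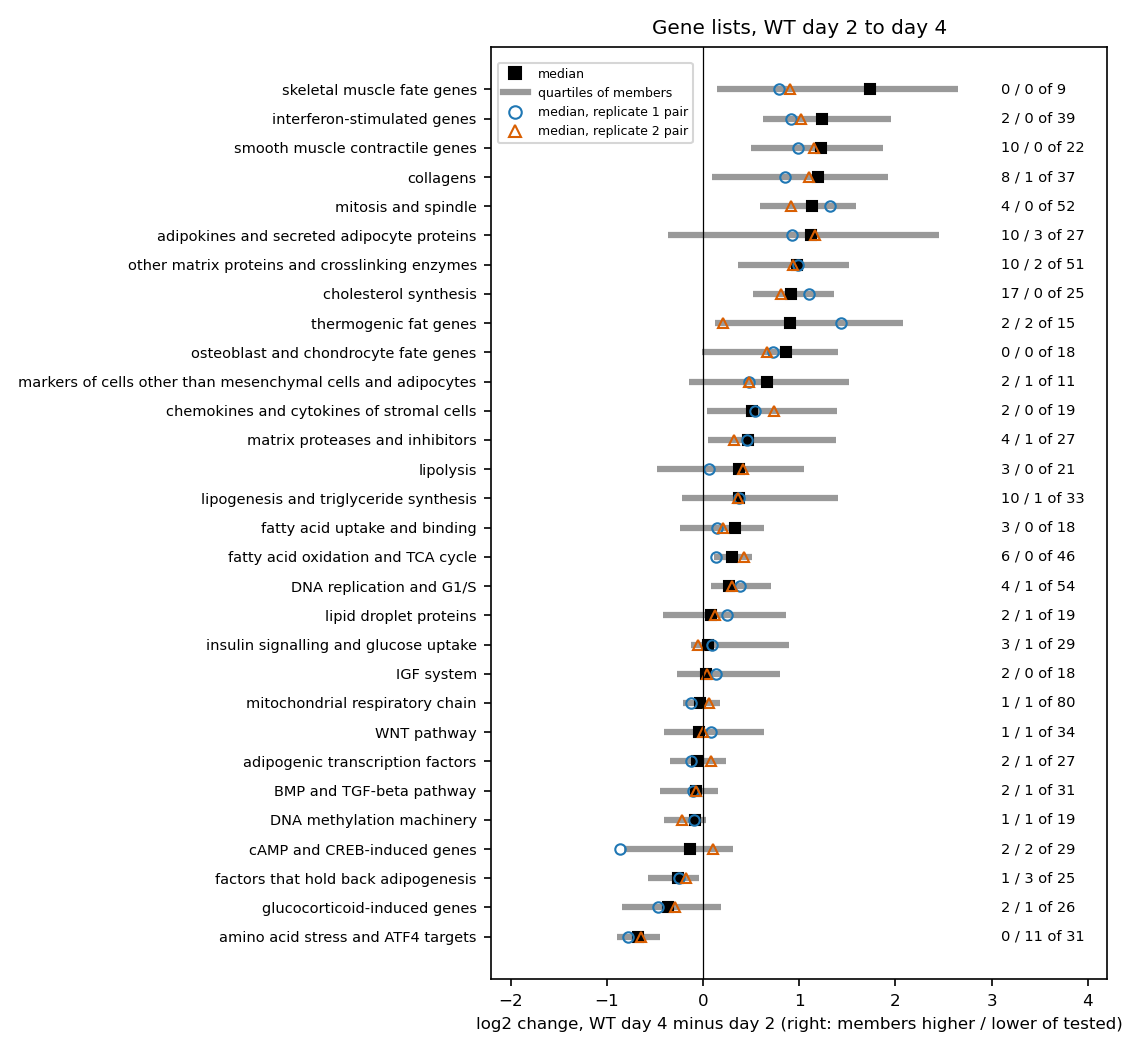
Median log2 change from day 2 to day 4 in WT (black squares) of 30 gene lists, with the quartiles of the members (grey bars), the medians in each pair of same-numbered samples (open symbols) and, at the right, how many members were higher and lower of those tested. Cholesterol synthesis has the highest share of called members (17 of 25), and amino acid stress has the lowest median (-0.68).

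Cholesterol synthesis was the list with the largest share of changed members. Of 25 genes of the pathway and its control 17 were higher at day 4 (68%, against 6.62% of all genes tested), 0 were lower, and the median log2 change was 0.92, with medians of 1.10 and 0.81 in the pairs of same-numbered samples. The 17 include enzymes from mevalonate to cholesterol (Mvk, Pmvk, Idi1, Fdps, Fdft1, Sqle, Tm7sf2, Msmo1, Nsdhl, Sc5d and Dhcr7), together with Acat2, the transcription factor gene Srebf2, its regulator Insig1 and the sterol carrier gene Stard4. The log2 changes of the 17 ran from 0.72 to 1.91. Fdft1, squalene synthase, was at 15.1 and 20.4 CPM at day 2 and 63.7 and 70.0 CPM at day 4 (1.91 ± 0.28, adjusted p = 0.00089). Fdps, farnesyl diphosphate synthase, was at 25.9 and 61.1 CPM and then 115 and 170 CPM (1.70 ± 0.34, adjusted p = 0.0055). Both calls held with each sample left out, and in each gene both day 4 samples were above both day 2 samples. In undifferentiated cells these genes were higher than at either day, at 187 and 182 CPM for Fdft1 and 250 and 256 CPM for Fdps. Without day 2 replicate 1 the list had 10 genes higher, and without day 4 replicate 2 it had 11. Of the 31-base sequences of Fdps 27.9% occur in other genes, and 14.3% of those of Fdft1.

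The promoters of Mvk, mevalonate kinase, and Msmo1, methylsterol monooxygenase, are shown because both genes belong to this group and rose together (log2 changes of 1.14 and 0.75). The 160 bases before the start of Mvk (GRCm38.p6, chr5:114444109-114444268, plus strand) hold 4 CCAAT matches on either strand, and those of Msmo1 (chr8:64733579-64733738, minus strand) hold 3, in capitals. A match is one of letters, no binding was measured, and no share is given for the list, since promoters were found for 18 of its 25 genes.
Mvk: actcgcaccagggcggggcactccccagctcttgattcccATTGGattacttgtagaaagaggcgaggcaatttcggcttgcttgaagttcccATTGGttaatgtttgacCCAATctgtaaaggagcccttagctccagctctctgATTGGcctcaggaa
Msmo1: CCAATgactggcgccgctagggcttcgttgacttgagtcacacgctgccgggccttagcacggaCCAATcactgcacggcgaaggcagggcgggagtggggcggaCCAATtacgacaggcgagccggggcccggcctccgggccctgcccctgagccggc

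ATF4 is the transcription factor of the amino acid stress response and raises amino acid synthesis, amino acid transport and tRNA charging. Of 31 genes 0 were higher, 11 were lower (35.5%, against 4.16% of all genes tested) and 20 were not called, and the median log2 change was -0.68. The 11 were Atf4 itself and Atf5, the synthesis genes Asns, Psat1 and Shmt2, the transporter gene Slc7a5, the tRNA synthetase genes Cars, Wars and Eprs, and Chac1 and Sesn2. Chac1, which degrades glutathione, was at 69.7 and 80.0 CPM at day 2 and 11.8 and 24.3 CPM at day 4 (-2.04 ± 0.40, adjusted p = 0.0059, and 0.072 without day 4 replicate 1). Atf5 was at 556 and 1093 CPM and then 252 and 438 CPM (-1.26, adjusted p = 0.035, and 0.35 and 0.27 without day 2 replicate 2 and day 4 replicate 1 in turn). In both genes day 4 replicate 1 was the lowest of the 4 samples. The list had 3 called genes without day 2 replicate 2, 1 without day 4 replicate 1, 14 without day 2 replicate 1 and 15 without day 4 replicate 2.

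The promoter of Chac1 is given as that of the member that fell most. The 160 bases before its start (GRCm38.p6, chr2:119351082-119351241, plus strand) hold 3 CCAAT matches, in capitals. Promoters were found for 27 of the 31 genes of the list, and CCAAT stood in 56.7% of their 30 windows, against 37.4% of all windows. That share was not particular to this list. It was 73.9% for mitosis genes, 58.1% for fatty acid oxidation and the TCA cycle, and 30.4% for lipid droplet proteins.
Chac1: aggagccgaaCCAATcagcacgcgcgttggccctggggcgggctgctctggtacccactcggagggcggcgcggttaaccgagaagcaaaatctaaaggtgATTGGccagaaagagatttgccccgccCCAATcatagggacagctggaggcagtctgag

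**Figure D3:**
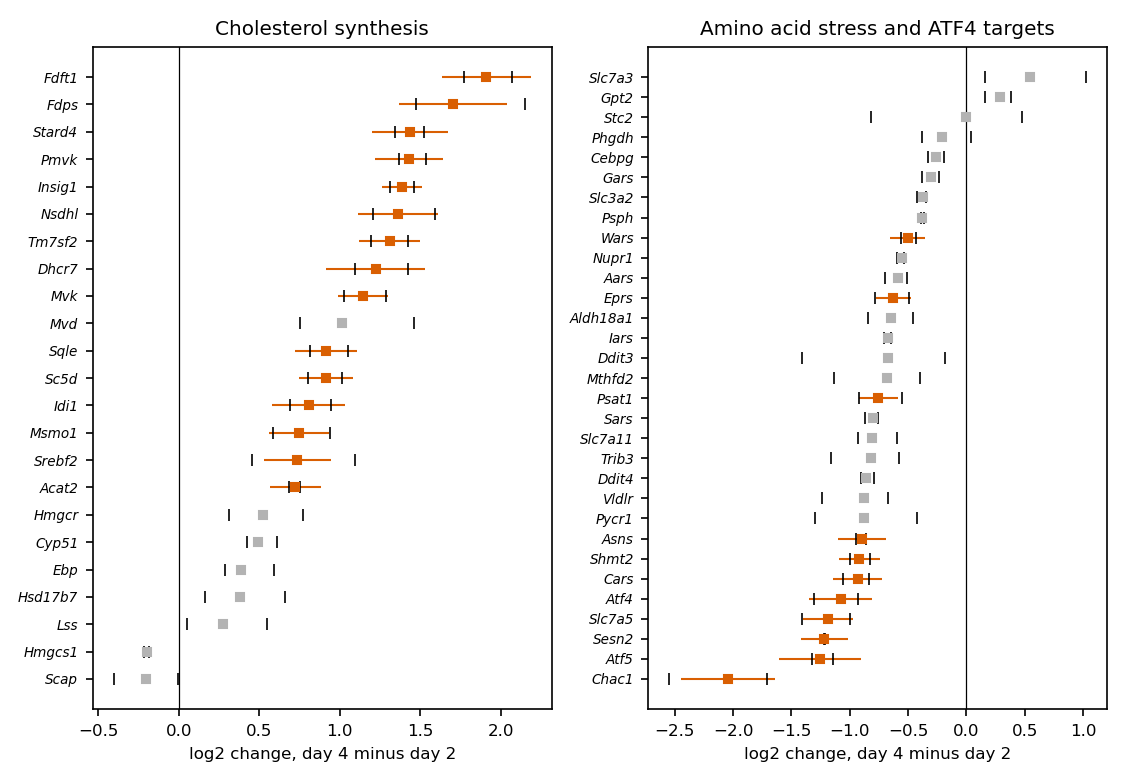
Log2 change from day 2 to day 4 in WT of 23 of the 25 genes tested in the cholesterol synthesis list and of each of the 31 in the amino acid stress list; squares are fitted values, orange where the adjusted p was under 0.05 with bars of 1 standard error, and short black strokes are the pairs of same-numbered samples. In the cholesterol list 21 of 23 fitted values shown are above 0, and in the amino acid stress list 3 of 31 are.

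In the edgeR fit to all 22 samples, genes known to be induced by the agents withdrawn at day 2 were called at shares near those of all genes. In some other fits more of them were called lower. Of 26 glucocorticoid-induced genes 2 were higher (7.69%, against 6.62%) and 1 was lower (3.85%, against 4.16%), with a median log2 change of -0.36. At an unadjusted p under 0.05, 3 were higher and 8 lower, against 2109 and 1708 of the 14520 genes tested. With the replicate number as a block 2 were called higher and 6 lower, against 1365 and 942 of the 14520 genes tested. The median was -0.46 in W330R and -0.72 in W330R-R181E cells. In W330R cells 1 was higher and 4 were lower, against 7.37% and 5.04% of all genes. In W330R-R181E cells 1 was higher and 5 were lower, against 6.38% and 4.33%. Fkbp5, a standard glucocorticoid response gene, was at 778 and 1226 CPM at day 2 and 566 and 1346 CPM at day 4 (-0.07, adjusted p = 0.97), and at 38.3 and 189 CPM at day 6. It was lower at day 4 in replicate 1 and higher in replicate 2. Pdk4, a kinase that shuts off pyruvate dehydrogenase, fell from 339 and 277 CPM to 120 and 116 CPM (-1.38 ± 0.28, adjusted p = 0.0075, and 0.055 without day 4 replicate 1). Sult1a1, a sulfotransferase, rose (2.20, adjusted p = 0.038), but the adjusted p of Sult1a1 ran from 0.076 to 0.17 with each of the 4 samples left out in turn.

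Of 29 cAMP and CREB-induced genes 2 were higher (6.9%, against 6.62% of all genes tested) and 2 were lower (6.9%, against 4.16%). Their median log2 change was -0.14 and differed between the pairs of same-numbered samples (-0.86 and 0.11). DESeq2 and edgeR with the replicate number as a block each called 3 higher and 4 lower. Over all genes DESeq2 called 1368 higher and 848 lower, and the block 1365 and 942. Within each mutant 2 were higher and 4 lower, beside the shares of all genes given above. Pde4d, a cAMP phosphodiesterase, fell from 86.8 and 67.3 CPM to 38.8 and 37.6 CPM (-1.01 ± 0.17, adjusted p = 0.0028), while Pde4a, of the same family, rose from 1.51 and 1.62 CPM to 6.14 and 5.11 CPM (1.84 ± 0.32, adjusted p = 0.0030). Both calls held with each sample left out. Sik1, a kinase induced by cAMP, fell from 113 and 123 CPM to 72.1 and 73.2 CPM (-0.70, adjusted p = 0.0060, and 0.052 and 0.053 without day 2 replicate 2 and day 4 replicate 1 in turn), and Cited1, a transcriptional coactivator, rose from 0.529 and 0.492 CPM to 1.59 and 2.31 CPM (1.93, adjusted p = 0.044, and from 0.086 to 0.23 with each of the 4 samples left out in turn). Nr4a1, an immediate early gene, was at 58.1 and 11 CPM and then 31.9 and 53.1 CPM (0.31, adjusted p = 0.84), with opposite directions in the pairs of same-numbered samples.

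Of 22 contractile genes of smooth muscle, which mesenchymal cells also express, 10 rose (45.5%, against 6.62% of all genes tested), 0 fell and 12 were not called, with a median log2 change of 1.23: Acta2, Myl9, Mylk, Tpm1, Tpm2, Tpm4, Des, Lmod1, Csrp1 and Flna. Acta2, smooth muscle α-actin, was at 41.8 and 8.07 CPM at day 2 and 244 and 129 CPM at day 4 (2.92 ± 0.74, adjusted p = 0.022, and 0.17 and 0.13 without day 2 replicate 2 and day 4 replicate 1 in turn). Des, the intermediate filament protein desmin, was at 0.0755 and 0.344 CPM and then 3.54 and 8.13 CPM (4.65 ± 0.67, adjusted p = 0.00081), a call that held with each sample left out. Undifferentiated cells had 1240 and 1240 CPM of Acta2, so that its day 4 level was still well below that of the precursor. The count of genes called higher was 3 without day 2 replicate 2 and 4 without day 4 replicate 1.

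The promoters of Acta2 and Tpm1 are shown as those of contractile genes that rose together and share a match to GGAATG, the core letters bound by TEAD factors, in capitals. The match lies 146 bases before the start of Acta2 (GRCm38.p6, chr19:34255374-34255533, minus strand) and 56 bases before that of Tpm1 (chr9:67049214-67049373, minus strand), and GGAATG on either strand occurs in 14.7% of all windows. No share is given for the list, since promoters were found for 17 of its 22 genes.
Acta2: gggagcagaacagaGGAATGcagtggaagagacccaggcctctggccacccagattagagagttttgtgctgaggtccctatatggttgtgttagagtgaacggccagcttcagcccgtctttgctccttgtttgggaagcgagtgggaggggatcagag
Tpm1: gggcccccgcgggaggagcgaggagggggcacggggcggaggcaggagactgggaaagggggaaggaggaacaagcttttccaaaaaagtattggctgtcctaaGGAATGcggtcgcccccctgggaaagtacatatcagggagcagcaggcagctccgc

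Of 37 collagen genes 8 rose (21.6%, against 6.62% of all genes tested) and 1 fell (2.7%, against 4.16%), with a median log2 change of 1.20. Col1a1 was at 95 and 291 CPM at day 2 and 662 and 743 CPM at day 4 (1.86 ± 0.53, adjusted p = 0.036, and 0.16, 0.11 and 0.1 without day 2 replicate 1, day 4 replicate 1 and day 4 replicate 2 in turn). Col3a1 was at 180 and 286 CPM and then 1064 and 967 CPM (2.12 ± 0.27, adjusted p = 0.00037), which held with each sample left out. Their levels in undifferentiated cells were 7530 and 6660 CPM for Col1a1 and 2740 and 2750 CPM for Col3a1, above both days. Col1a2, Col4a5, Col5a3, Col8a2, Col18a1 and Col28a1 were the other genes that rose. Col5a1 fell from 601 and 940 CPM to 438 and 462 CPM (-0.78, adjusted p = 0.027, and 0.29, 0.15 and 0.075 without day 2 replicate 2, day 4 replicate 1 and day 4 replicate 2 in turn). The count of collagen genes called higher was 5 without day 2 replicate 2 and 5 without day 4 replicate 1.

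Of 51 other matrix proteins and crosslinking enzymes 10 were higher (19.6%, against 6.62% of all genes tested) and 2 were lower (3.92%, against 4.16%). Their median log2 change was 0.98. The 10 were Sparc, Eln (elastin), Efemp1, Dcn (decorin), Prelp, Nid1, Wisp1, P4ha3, Mfap5 and Nov, which went from 3.17 and 0.984 CPM to 77.2 and 32.8 CPM. Mfap5, a microfibril protein, had 0 counts in both day 2 samples and 10 and 5 counts at day 4, at least 2.65-fold higher against the floor of 3 counts per sample (adjusted p = 0.02, and 0.058, 0.16 and 0.11 without day 2 replicate 1, day 2 replicate 2 and day 4 replicate 1 in turn). Lamb1, a laminin chain, fell from 622 and 1077 CPM to 388 and 499 CPM (-0.94, adjusted p = 0.039, and 0.36, 0.25 and 0.058 without day 2 replicate 2, day 4 replicate 1 and day 4 replicate 2 in turn). Vcan, the proteoglycan versican, fell from 2141 and 2264 CPM to 1411 and 1143 CPM (-0.79, adjusted p = 0.017, and 0.086 and 0.093 without day 2 replicate 2 and day 4 replicate 2 in turn). The count of other matrix genes called higher was 4 without day 2 replicate 2 and 4 without day 4 replicate 1. Among 27 proteases and inhibitors 4 rose (14.8%) and 1 fell (3.7%), and those that rose were Timp4, Adamts4, Adamts12 and Plat. Timp4, a metalloproteinase inhibitor, was at 3.02 and 1.03 CPM and then 27.9 and 14.5 CPM (3.43, adjusted p = 0.030, and 0.051, 0.23 and 0.14 without day 2 replicate 1, day 2 replicate 2 and day 4 replicate 1 in turn), and Adamts4, a protease of proteoglycans, went from 0.529 and 0.443 CPM to 1.66 and 4.09 CPM (2.58, adjusted p = 0.030, and 0.088, 0.2 and 0.19 without day 2 replicate 1, day 2 replicate 2 and day 4 replicate 2 in turn).

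**Figure D4:**
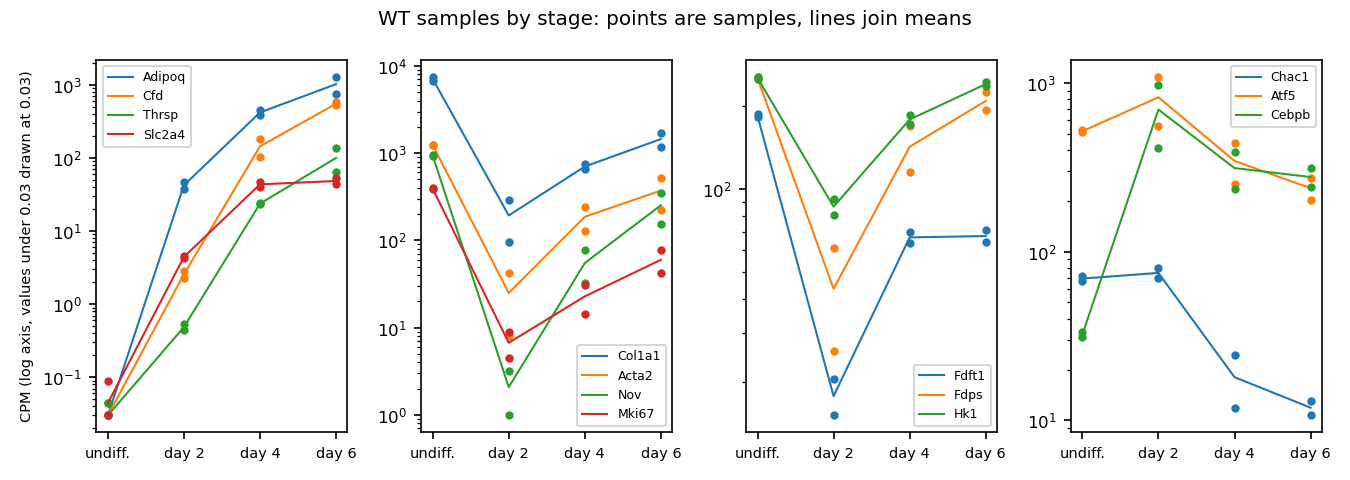
Levels (CPM, log axis) of 14 named genes in WT samples by stage; points are samples, lines join the means of 2 samples, and values under 0.03 are drawn at 0.03. From left to right the panels show adipocyte genes that climb from day 2 to day 4, precursor genes with their lowest level at day 2, cholesterol genes and Hk1 with the same course, and genes that fall after day 2.

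Undifferentiated cells are set beside these values as levels only, since both contrasts would share the day 2 samples, and their column names in the count table followed another pattern than those of the differentiating cells. Stage and sample preparation cannot be told apart for them. In the plot of WT samples by stage, the adipocyte genes Adipoq, Cfd and Thrsp were also higher at day 6 than at day 4 in both samples, whereas Slc2a4 was at 44.5 and 52.6 CPM at day 6 and overlapped its day 4 values. Col1a1, Acta2, Nov and Mki67 had their lowest values at day 2 and remained below the undifferentiated level at day 6.

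Of 52 mitosis and spindle genes 47 had a fitted value above 0, 4 were called higher (7.69%, against 6.62% of all genes tested) and 0 lower, and the median log2 change was 1.13, against 0.01 over all genes. The 4 were Plk1, Anln, Racgap1 and Ect2. Ect2, which directs cytokinesis, was at 1.36 and 1.43 CPM and then 6.64 and 3.88 CPM (1.90 ± 0.39, adjusted p = 0.0067, and 0.071 and 0.072 without day 2 replicate 2 and day 4 replicate 1 in turn), and Anln, anillin, was at 5.74 and 2.95 CPM and then 22.2 and 12.3 CPM (2.01, adjusted p = 0.044, and from 0.052 to 0.3 with each of the 4 samples left out in turn). Mki67, the proliferation marker Ki-67, was at 8.91 and 4.48 CPM and then 31.2 and 14.4 CPM (1.78 ± 0.66, adjusted p = 0.099). In undifferentiated cells it was at 387 and 396 CPM. DESeq2 called it (adjusted p = 0.022), as did edgeR without the filter on low counts (0.042). With DESeq2 in place of edgeR 15 mitosis genes were called, without the filter on low counts 9, and with day 2 replicate 2 or day 4 replicate 1 left out the count was 0. With the replicate number as a block 19 mitosis genes were called higher, against 1365 of all genes tested. Of 54 genes of DNA replication 4 were higher (7.41%) and 1 was lower (1.85%), with a median log2 change of 0.27. Uhrf1, which couples replication to DNA methylation, was at 4.23 and 1.97 CPM and then 17.8 and 10.0 CPM (2.20, adjusted p = 0.019, and 0.2 and 0.14 without day 2 replicate 2 and day 4 replicate 1 in turn), and Lig1, a DNA ligase, was at 9.51 and 7.97 CPM and then 17.9 and 15.3 CPM (0.93, adjusted p = 0.0080, and 0.12 and 0.071 without day 2 replicate 2 and day 4 replicate 1 in turn). Mcm6 and Ccne1 were the other genes that rose. Mcm2 was at 19.3 and 22.4 CPM and then 25.3 and 24.1 CPM (0.24, adjusted p = 0.46), and Mcm7, of the same helicase, fell from 70.3 and 66.1 CPM to 49.4 and 50.4 CPM (-0.45, adjusted p = 0.027, and from 0.075 to 0.13 with each of the 4 samples left out in turn). Of the 31-base sequences, 24.2% of those of Uhrf1 and 26.8% of those of Mcm7 occur in other genes.

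The promoter of Ect2 is given as an example of this group. Its 160 bases before the upstream start (GRCm38.p6, chr3:27153879-27154038, minus strand) hold TTTGAA, the cell cycle homology region, in capitals. Promoters were found for 43 of the 52 mitosis genes, and TTTGAA on either strand stood in 73.9% of their 46 windows, against 17.9% of all windows.
Ect2: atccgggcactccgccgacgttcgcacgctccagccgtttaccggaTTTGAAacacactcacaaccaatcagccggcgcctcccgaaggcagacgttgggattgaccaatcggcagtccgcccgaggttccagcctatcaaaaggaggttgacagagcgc

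In signalling pathways of cell fate the shares called were near or below those of all genes (6.62% higher and 4.16% lower), except for those higher in the IGF system. In the BMP and TGF-β pathway 2 of 31 genes rose (6.45%) and 1 fell (3.23%, Inhba), with a median log2 change of -0.07. Gdf5, a BMP ligand, rose from 0.302 and 0.836 CPM to 6.06 and 3.88 CPM (3.05 ± 0.49, adjusted p = 0.0024), and Chrd, the BMP antagonist chordin, rose from 3.32 and 5.21 CPM to 11.3 and 18.5 CPM (1.80 ± 0.25, adjusted p = 0.00061). Both calls held with each sample left out, but 40.3% of the exon bases of Gdf5 overlap Gm15557 on the other strand. Of 34 WNT pathway genes 1 rose (2.94%), the transcription factor gene Tcf7, from 0.680 and 0.246 CPM to 1.59 and 1.88 CPM (1.96, adjusted p = 0.015, and 0.18 and 0.068 without day 2 replicate 2 and day 4 replicate 2 in turn), and 1 fell, Notum, of whose exon bases 38.1% overlap antisense genes. In the IGF system 2 of 18 genes rose (11.1%). Igfbp7, an IGF-binding protein, rose from 47.8 and 39.4 CPM to 118 and 110 CPM (1.39 ± 0.21, adjusted p = 0.0012). Igf2 had 2 and 2 counts at day 2 and 17 and 20 counts at day 4, a ratio of 9.58 (95% exact interval 3.44 to 37; adjusted p = 0.019, and 0.055, 0.17 and 0.076 without day 2 replicate 1, day 2 replicate 2 and day 4 replicate 1 in turn), and 61.9% of its 31-base sequences occur in other genes. Of 18 osteoblast and chondrocyte genes and 9 skeletal muscle genes tested, 0 were called in either direction with edgeR, and their median log2 changes were 0.86 and 1.74. At an unadjusted p under 0.05, 2 of the former were higher and 0 lower, and 2 of the latter were higher and 0 lower. DESeq2 called 1 of the former higher and 0 of the latter, and without day 2 replicate 1 edgeR called 2 of the former higher.

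Of 39 interferon-stimulated genes 36 had a fitted value above 0, with a median log2 change of 1.24. Of these genes 2 were called in the edgeR fit to all 22 samples (5.13%, against 6.62% of all genes tested). The count higher was 5 with DESeq2, 4 without the filter, 4 with the replicate number as a block and 0 with days 2 to 6 only. Over all genes these settings called 1368, 850, 1365 and 701 higher. With the block and only the WT samples it was 14, against 1607. At an unadjusted p under 0.05, 8 were higher and 0 lower, against 2109 and 1708 of the 14520 genes tested. Ifit2 was at 2.72 and 1.77 CPM and then 7.58 and 6.14 CPM (1.63, adjusted p = 0.031, and from 0.051 to 0.25 with each of the 4 samples left out in turn). Psmb8, an immunoproteasome subunit, had 0 counts in both day 2 samples and 4 and 17 counts at day 4, at least 3.22-fold higher against the floor (adjusted p = 0.04, and from 0.06 to 0.22 with each of the 4 samples left out in turn). Of 19 chemokines, cytokines and their regulators 2 rose, Il34 from 0.831 and 0.836 CPM to 1.81 and 2.26 CPM (1.28, adjusted p = 0.012, and 0.097 and 0.079 without day 2 replicate 2 and day 4 replicate 2 in turn) and Nfkb1 from 52.1 and 50.6 CPM to 76.7 and 69.3 CPM (0.51, adjusted p = 0.024, and from 0.054 to 0.17 with each of the 4 samples left out in turn). The share higher among these 19 chemokines, cytokines and regulators was 10.5%, and 0 were lower. Among 11 tested markers of cells other than mesenchymal cells and adipocytes, 2 were higher (18.2%) and 1 lower (9.09%), at levels of at most 8.0 CPM. Tek, an endothelial receptor, went from 0.453 and 0.0984 CPM to 1.73 and 1.4 CPM (adjusted p = 0.026, and 0.26, 0.11 and 0.059 without day 2 replicate 2, day 4 replicate 1 and day 4 replicate 2 in turn), but had been at 16.6 and 18.5 CPM in undifferentiated cells. Lyz2 had 3 and 1 counts and then 9 and 16 counts (ratio 6.47, 95% exact interval 2.23 to 25.6; adjusted p = 0.016, and 0.19 and 0.075 without day 2 replicate 2 and day 4 replicate 2 in turn), and 32.8% of its 31-base sequences occur in other genes. Cd68 was at 8.0 and 7.87 CPM and then 4.12 and 3.01 CPM (-1.16, adjusted p = 0.039, and from 0.088 to 0.16 with each of the 4 samples left out in turn). The part of other cells in the results above was not tested.

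Of 19 genes of the DNA methylation machinery and its readers 1 was higher (Uhrf1, 5.26%, against 6.62% of all genes tested) and 1 was lower (5.26%, against 4.16%). Ring1, a Polycomb subunit that ubiquitinates histone H2A, fell from 49.4 and 59.0 CPM to 34.2 and 38.3 CPM (-0.58, adjusted p = 0.042, and 0.26, 0.23 and 0.075 without day 2 replicate 2, day 4 replicate 1 and day 4 replicate 2 in turn). Dnmt3a itself was at 175 and 322 CPM at day 2 and 105 and 160 CPM at day 4 (log2 change -0.91 ± 0.40, adjusted p = 0.16). Both day 4 values were below both day 2 values. Dnmt3a was called in the fits with the replicate number as a block, given with the processing. Undifferentiated WT cells had 347 and 345 CPM and day 6 cells 111 and 149 CPM.

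The change from day 2 to day 4 was then compared with that of the mutant cells, to ask whether WT cells pass this interval differently. W330R cells had 1802 genes called between the same days (12.4%) and W330R-R181E cells 1555 (10.7%). The difference between the changes was tested for each gene: 0 of 14520 genes (0%) differed between W330R and WT, and 0 (0%) between W330R-R181E and WT, with edgeR. At an unadjusted p under 0.05 there were 541 and 345 of the 14520 genes. Each is a smaller share than the 0.05 that the threshold alone would give, so 0 calls do not show that the genotypes changed alike. With the replicate number as a block the counts were 762 and 443. They were 373 and 155 with only the samples of the contrast, and 733 and 762 with the block and only those samples. In these 3 fits 0 genes were called. DESeq2 called 17 and 4. Both tests share the 4 WT samples. Cholesterol synthesis had median log2 changes of 0.92 in WT, 0.88 in W330R and 0.70 in W330R-R181E, and amino acid stress genes had -0.68, -0.57 and -0.54. Mitosis genes had medians of 1.13, 2.59 and 0.80. Of the 52 genes 4, 42 and 0 were called higher within the genotypes, against 6.62%, 7.37% and 6.38% of all genes. The WT count depended on the fit, at 15 with DESeq2 and 19 with the replicate number as a block. The counts of the mutants were not made with those settings. The lowest adjusted p for a difference between W330R and WT in that list was 0.66. For Mki67, W330R had 3.15 and 3.84 CPM at day 2 and 58.0 and 48.8 CPM at day 4, against 8.91 and 4.48 CPM and then 31.2 and 14.4 CPM in WT, a difference of the log2 changes of 2.14 ± 0.93 (adjusted p = 1.00). Among the adipocyte genes, Thrsp rose by 5.61 in WT, 3.53 in W330R and 4.45 in W330R-R181E, with differences from WT of -2.08 ± 0.58 (adjusted p = 0.90) and -1.16 ± 0.67 (adjusted p = 1). Hadh, which rose in WT, was at 103 and 113 CPM and then 93.5 and 120 CPM in W330R, a difference of -1.13 ± 0.28 (adjusted p = 0.80).

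**Figure D5:**
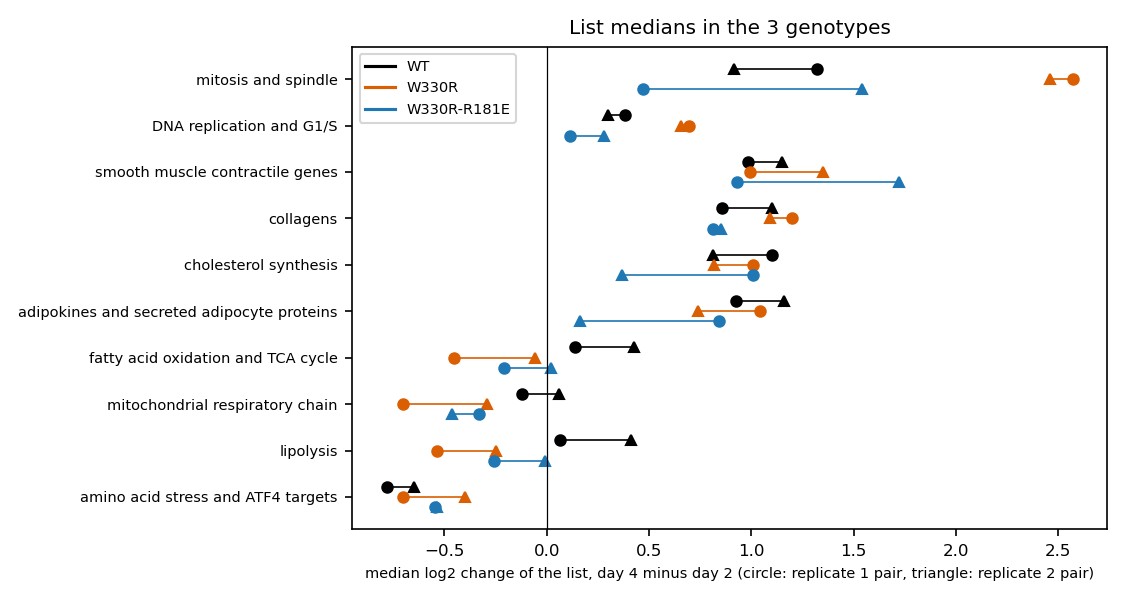
Median log2 change from day 2 to day 4 of 10 gene lists in WT (black), W330R (orange) and W330R-R181E (blue), for the pairs of replicate 1 (circles) and replicate 2 (triangles). The mitosis medians of both W330R pairs lie to the right of those of WT, while cholesterol synthesis is above 0 and amino acid stress below 0 in all 6 pairs.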

How the data were processed

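RNA-seq of 22 samples was used, with 2 samples in each of 11 groups set by the genotype and stage in the labels. The authors deposited 1 table of whole counts per gene symbol for 30170 genes, not normalized, of which 7067 had 0 counts in all samples. The submitters' processing notes list kallisto, DESeq2 1.40 and the genome build GRCm39, without their roles, so the counts may be rounded estimates. Strand in counting was not given in the sources used here. No column lacked a sample.

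From the deposited counts, genes were kept by filterByExpr (minimum count 10, minimum total 15) and TMM-normalized. A quasi-likelihood model of edgeR 4.0.16 (R 4.3.3) with 11 group means was fitted to all 22 samples and checked on simulated data. p-values were adjusted over the 14520 genes by the method of Benjamini and Hochberg, and a gene was called under 0.05. The standard error is the log2 change divided by the root of the F statistic. The gene lists, the named genes and the motifs were chosen with earlier results of these data known. The text names a fixed set (Dnmt3a, adipogenic factors and markers), the 10 called genes that rose most and the 10 that fell most (average of 1 or more in log2 CPM, predicted genes excluded), and up to 2 called genes per direction from each list. Other genes appear as members of a count.

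Alternatives were DESeq2 1.42.0, RLE normalization, no filter, only the samples of the contrast, only days 2 to 6, the replicate number as a block, and each sample left out. Where 1 sample of a group was left, it was taken to vary like the other groups. Intervals and the floor of 3 counts cover counting error only. Shared 31-base sequences and exon overlaps came from GENCODE M21 on GRCm38, and promoters from RefSeq (GRCm38.p6), matched by symbol. Coordinates of that build are given for the printed promoters alone. A motif share is given for a list where promoters were found for at least 80% of its genes. Each motif was searched on both strands. Day 6 and undifferentiated samples entered the fit and are described as levels. The labels name the double mutant R181E and its columns R181A. Some genes that the rule takes, or that a count holds, are not reported here by name.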

Additional observations from a re-analysis of the deposited data

Results flagged for a closer look

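No group had the 4 samples needed to look for an outlying sample. In 8 cases, over 7 lists, the median log2 change from day 2 to day 4 had one sign in both WT pairs of same-numbered samples and the other sign in both pairs of a mutant. The difference of the medians was not tested, and the values are means over the pairs, mutant minus WT. For W330R the difference was -0.631 in lipolysis (WT 0.0669 and 0.411, W330R -0.535 and -0.249). It was -0.538 in fatty acid oxidation and the TCA cycle (WT 0.137 and 0.427, W330R -0.453 and -0.0584). It was 0.319 in the BMP and TGF-β pathway (WT -0.108 and -0.0721, W330R 0.175 and 0.283). In the DNA methylation machinery it was 0.257 (WT -0.0981 and -0.217, W330R 0.166 and 0.0326). For W330R-R181E it was -0.52 in lipid droplet proteins (WT 0.253 and 0.129, W330R-R181E -0.259 and -0.398). It was -0.374 in lipolysis (W330R-R181E -0.259 and -0.0112). It was -0.257 in fatty acid uptake and binding (WT 0.144 and 0.21, W330R-R181E -0.154 and -0.00569). In the IGF system it was -0.189 (WT 0.137 and 0.0367, W330R-R181E -0.0921 and -0.113). Several of these pair values were close to 0. The WT values are the same in both comparisons. No gene of these lists differed between genotypes in edgeR's test.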

How the results depend on the processing

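The number of genes called moved with the samples fitted and with the replicate block. Against 1565 (961 higher, 604 lower), it was 7 (7 higher, 0 lower) with only the 4 WT samples, 1013 (312 lower) with days 2 to 6 only, and 732 at a log2 change of at least 1. With 1 WT sample left out it ran from 488 to 1432, with 339 to 788 higher and 149 to 644 lower. DESeq2 called 2216, RLE 1534 and no filter 1336. Among the 80 named genes called, 29 kept the call with each WT sample left out and 51 lost it at least once. For the differences between genotypes (0 with edgeR), DESeq2 called 17 for W330R (10 higher, 7 lower) and 4 for W330R-R181E (3 higher, 1 lower), and the count with 1 sample left out ran from 0 to 3 for W330R-R181E (0 to 2 higher, 0 to 1 lower) and was 0 for W330R. Of the named genes, 4 that were not called changed sign with 1 WT sample left out, with log2 changes from -0.4245 to 0.3666 for Cebpa, -0.06638 to 0.6877 for Fabp4, -0.851 to 0.4193 for Fkbp5 and -0.4651 to 1.946 for Nr4a1. With the replicate number as a block, 2307 genes were called (942 lower), and 2955 (1607 higher, 1348 lower) with a block and only the WT samples. The numbers come from the labels, and the deviations of same-numbered samples correlated at 0.438 in WT and above 0.1 in 26 of 36 pairs of conditions. Since not every pair was above 0.1, the numbers were not taken to pair the samples, although many of the same-numbered samples deviated together. The WT days compared here were above 0.1, so which genes count as not called depends on that choice. The block also called Dnmt3a (adjusted p = 0.019), Cebpb (adjusted p = 0.03), Cebpd (adjusted p = 0.045) and Mki67 (adjusted p = 0.044). With only the WT samples it also called Pparg (0.019), Plin1 (0.014) and Lpl (0.012). None of these genes was called without the block in the filtered edgeR fit to all 22 samples. Without the block, DESeq2 called Cebpb and Mki67 (adjusted p = 0.021 and 0.022). So did edgeR without the filter on low counts (0.025 and 0.042). The cause of these shifts was not tested.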
